A study of Arabidopsis thaliana with 12 samples.

Results

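The heat shock genes of Arabidopsis described here are 40 loci of the 33655 in the deposited table. They comprise 21 heat shock factors (HSFs), 5 HSP70 genes, 4 HSP90 genes, HSP101 and 9 small heat shock proteins, and were chosen by locus identifier from a list of the factors and of cytosolic chaperones. Not all are cytosolic, since at least 3 of the small heat shock proteins act elsewhere: HSP21 is a chloroplast protein, HSP23.6-MITO a mitochondrial and HSP22.0 an endomembrane protein. No compartment was assigned here to the small heat shock proteins AT5G37670, AT1G53540 and AT1G07400. RNA came from whole seedlings of 4 groups with 3 libraries each: the double mutant b''ab''b after continuous red light for 1 h (8 µmol of photons each second per square metre), the same mutant kept in the dark, wild type Col-0 after the same red light, and wild type Col-0 kept in the dark. In all 4 groups the seeds had 3 days of cold on medium without sucrose, then white light for 3 h (25 µmol on the same scale), then 4 days of darkness at 22 °C. The mutant is named for B''α and B''β, regulatory subunits that direct protein phosphatase 2A to its substrates. The sources used here give neither its insertion sites nor whether replicates were separate cultures. The p-values therefore measure the spread between these libraries only, which may be technical.

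Heat shock factors are transcription factors that bind heat shock elements, inverted repeats of a short motif upstream of chaperone genes. In Arabidopsis the HSFA1 factors are present before stress and are held inactive by HSP70 and HSP90. When proteins misfold, the chaperones leave the factors, which then activate HSFA2, other factors and the chaperone genes themselves. HSP70 and HSP90 fold client proteins, HSP101 pulls aggregated proteins apart, and small heat shock proteins bind unfolded proteins and keep them from aggregating.

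The 12 libraries, made from 3′ tags, held 2874429 to 4979055 counts. The B''α transcript (AT5G44090) averaged 4.23 ± 0.351 CPM (counts scaled to the library size) in mutant red light libraries, against 28.9 ± 1.08 CPM in wild type red light libraries (SD, n = 3 each). In the dark it averaged 5.83 ± 0.652 CPM in the mutant, against 27.9 ± 3.39 CPM in the wild type. The B''β transcript (AT1G03960) had 3 to 9 counts in each mutant library and 8 to 20 in each wild type library. The genotype difference did not pass in red light (log2 −0.96 ± 0.43 SE, edgeR adjusted p = 0.999) or in the dark (−1.87 ± 0.42, edgeR adjusted p = 0.226). PORA, PORB, PHYA and HLS1, markers of etiolated seedlings, were present and summed to 2752 to 3118 CPM in mutant red, 4439 to 4635 CPM in mutant dark, 2881 to 3308 CPM in wild type red and 4546 to 4715 CPM in wild type dark libraries. A principal component holding 9.92% of the variance set apart mutant dark replicate 3 (score 25.0) and wild type dark replicate 1 (score 27.5) from the other dark libraries, which lay between −20.2 and −8.15. Without both of these libraries the number of members higher in red light was again 17 in the mutant and 16 in the wild type, and the number lower was 0 in each, against 1 with them. The members counted differed in the mutant, where AT5G37670 no longer passed (edgeR adjusted p = 0.11) and HSFB4 did (0.0329). In RNA from whole seedlings, fewer cells of a type and less RNA per cell cannot be told apart.

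To show what lies upstream of these genes, the 250 bases before the annotated start were read from RefSeq (TAIR10.1) for the 5 members that hold a full heat shock element there and for HSP70 (AT3G12580), a chaperone gene that rose strongly in red light and holds none. Each sequence runs 5′ to 3′ on the coding strand of the gene, and capitals mark heat shock elements of 3 alternating repeats, GAANNTTCNNGAA or TTCNNGAANNTTC.
HSFA2, chr2:11135374-11135623, plus strand: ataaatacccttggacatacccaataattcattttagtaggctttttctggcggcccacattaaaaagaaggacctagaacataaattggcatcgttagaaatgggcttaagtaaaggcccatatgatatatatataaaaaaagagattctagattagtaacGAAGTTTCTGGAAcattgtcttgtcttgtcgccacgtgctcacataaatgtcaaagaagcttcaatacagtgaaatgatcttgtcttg
HSFA7A, chr3:19264891-19265140, plus strand: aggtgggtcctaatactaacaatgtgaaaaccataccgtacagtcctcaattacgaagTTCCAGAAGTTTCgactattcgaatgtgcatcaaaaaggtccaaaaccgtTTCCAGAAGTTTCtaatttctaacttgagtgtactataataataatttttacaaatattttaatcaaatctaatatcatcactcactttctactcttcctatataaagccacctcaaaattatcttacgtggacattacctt
HSFA7B, chr3:23398986-23399235, plus strand: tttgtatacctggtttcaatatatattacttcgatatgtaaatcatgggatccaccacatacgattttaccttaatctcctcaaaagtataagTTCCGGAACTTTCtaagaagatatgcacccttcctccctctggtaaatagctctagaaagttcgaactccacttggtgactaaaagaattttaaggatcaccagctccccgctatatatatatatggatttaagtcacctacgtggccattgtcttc
HSP17.4, chr3:16984868-16985117, minus strand: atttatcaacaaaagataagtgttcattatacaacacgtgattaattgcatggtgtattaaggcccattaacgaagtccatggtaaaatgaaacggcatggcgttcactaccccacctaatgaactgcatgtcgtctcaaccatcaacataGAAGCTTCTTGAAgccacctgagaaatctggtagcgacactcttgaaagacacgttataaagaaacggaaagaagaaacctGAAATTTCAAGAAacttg
AT1G53540, chr1:19980049-19980298, plus strand: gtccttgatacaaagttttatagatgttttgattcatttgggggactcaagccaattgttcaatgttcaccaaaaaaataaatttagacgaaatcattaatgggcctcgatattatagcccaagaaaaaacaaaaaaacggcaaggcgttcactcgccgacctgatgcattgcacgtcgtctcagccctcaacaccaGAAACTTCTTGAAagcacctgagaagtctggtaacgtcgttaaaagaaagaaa
HSP70 (AT3G12580), chr3:3993887-3994136, minus strand: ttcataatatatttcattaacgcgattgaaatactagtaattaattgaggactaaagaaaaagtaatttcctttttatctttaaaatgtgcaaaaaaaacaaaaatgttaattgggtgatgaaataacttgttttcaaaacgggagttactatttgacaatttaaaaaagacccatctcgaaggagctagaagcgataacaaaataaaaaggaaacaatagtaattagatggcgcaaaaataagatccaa

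Of 18487 genes with enough counts to test, 31 were members. The other 9 members, HSFA6A, HSFA8, HSFB3 and 6 small heat shock proteins, were too low. HSFA2, HSFA6B and AT1G07400 passed the filter on low counts only through their red light libraries. They could enter the test only by being high there, and they are counted among the members that rose. Red light raised 17 tested members and lowered 1 in the mutant, and raised 16 and lowered 1 in the wild type (edgeR quasi-likelihood test, Benjamini-Hochberg adjusted p under 0.05 over all tested genes, 3 libraries per group throughout). Over all tested genes, 10.7% were higher and 5.27% lower in the mutant, and 10.6% were higher and 4.68% lower in the wild type. The median log2 change of the tested members was 0.72 in the mutant and 0.64 in the wild type, while the median over all tested genes was −0.01 in the mutant and −0.02 in the wild type. Within the mutant, the red light libraries lay above the dark libraries without overlap in 21 tested members and below in 2, as in 17% and 13.3% of all tested genes. Within the wild type they lay above in 18 and below in 1, as in 16.5% and 13.6% of all tested genes. In 18 of the 31 tested members all 6 red light libraries, of both genotypes, lay above all 6 dark libraries, an order that 10.1% of all tested genes showed. HSFA5 alone lay below in all 6, as did 4.6% of all tested genes.

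**Figure D1:**
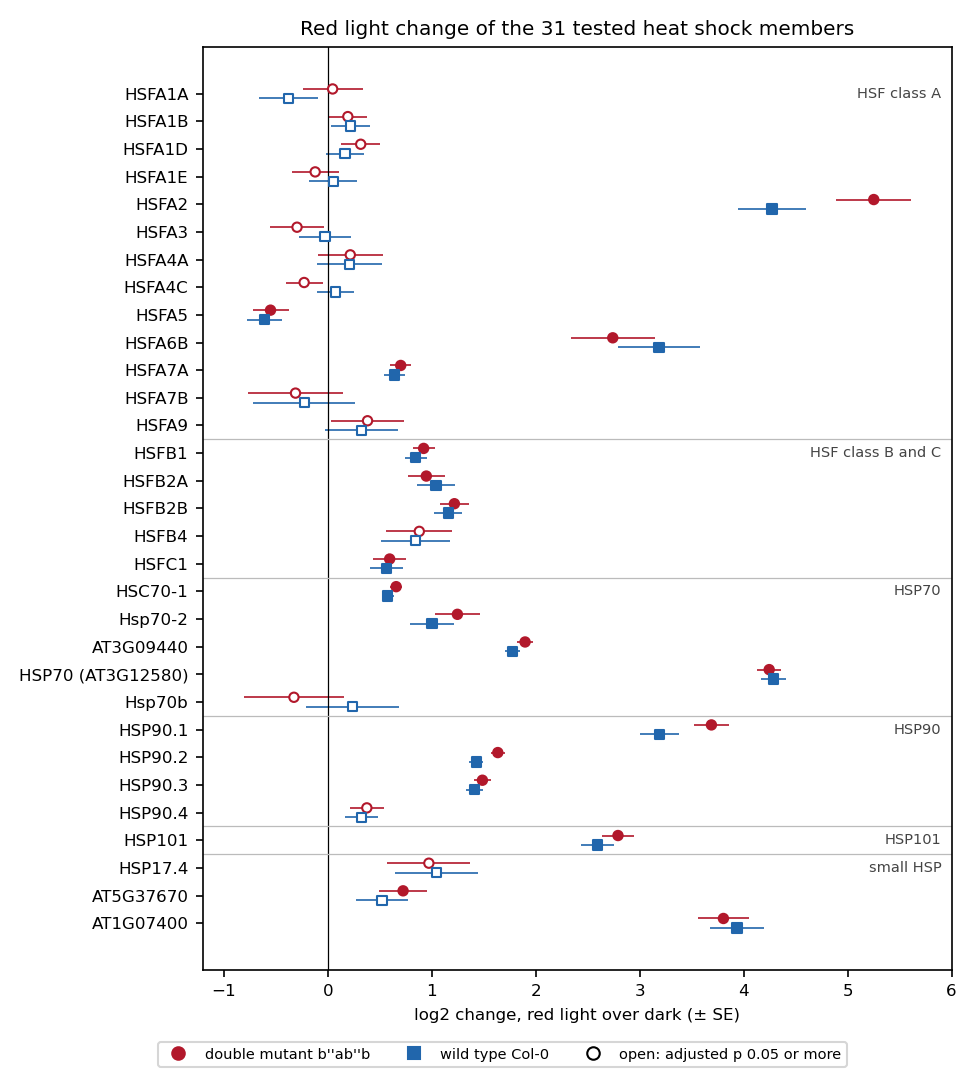
Log2 change in red light over dark (x axis, ± SE) of the 31 tested members (rows, grouped by class), with the double mutant as circles above and the wild type as squares below in each row. Filled symbols mark an edgeR adjusted p under 0.05. HSFA2, HSP70 (AT3G12580), AT1G07400 and HSP90.1 lie farthest to the right in both genotypes, the 4 HSFA1 genes lie near 0, and HSFA5 is the filled pair left of 0.

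The HSFA1 genes, which encode the factors that start the heat response, did not pass the test in either genotype. HSFA1A ranged from 3.37 to 5.95 CPM over the 12 libraries, HSFA1B from 10.98 to 18.97 CPM, HSFA1D from 10.2 to 16.7 CPM and HSFA1E from 6.09 to 10.6 CPM. Their log2 changes in red light ran from −0.12 to 0.32 in the mutant and from −0.38 to 0.22 in the wild type, with a smallest unadjusted p of 0.106 in the mutant and 0.201 in the wild type. The summed level of the 4 genes was 42.3 ± 5.99 CPM in mutant red and 38.4 ± 1.99 CPM in mutant dark libraries, and 41.8 ± 5.96 CPM in wild type red and 39.2 ± 3.78 CPM in wild type dark libraries (SD, n = 3 each).

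HSFA2 (chromosome 2, 11135624 to 11137792 in TAIR10.1), which sustains the heat response once HSFA1 factors have switched it on, had the largest log2 change of all tested members in the mutant. It stood at 19.005, 27.1 and 22.2 CPM in mutant red light libraries, against 1.70, 0.225 and 0.197 CPM in mutant dark libraries. Wild type libraries had 22.8, 22.5 and 19.1 CPM in red light, against 1.35, 1.10 and 0.626 CPM in the dark. Every red light library lay far above every dark library. The rise was 38.1-fold in the mutant (log2 5.25 ± 0.36 SE, edgeR adjusted p = 8.58e-11) and 19.3-fold in the wild type (4.27 ± 0.32, edgeR adjusted p = 4.72e-10), but the mutant's dark level rests on 5, 1 and 1 counts and the wild type's on 7, 4 and 2. Without mutant dark replicate 1, which holds 5 of those counts, the mutant's log2 change was 6.56 (edgeR adjusted p = 6.9e-11). Leaving out the highest dark library enlarges a rise in any case, so this value is no support for a larger one. The difference between the rises, 0.98 ± 0.70 on the log2 scale, did not pass (edgeR adjusted p = 1).

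HSFA6B, a class A factor known for a role in abscisic acid and heat responses, was likewise low in the dark. Its levels were 4.81, 6.65 and 6.74 CPM in mutant red light libraries, against 0.339, 0.899 and 1.18 CPM in mutant dark libraries. Its wild type levels were 6.37, 8.13 and 8.77 CPM in red light, against 1.16, 0.827 and 0.313 CPM in the dark. The groups did not overlap, and the rise was 6.68-fold in the mutant (log2 2.74 ± 0.40 SE, edgeR adjusted p = 1.85e-05) and 9.09-fold in the wild type (3.18 ± 0.40, edgeR adjusted p = 1.63e-06). Dark counts were 1 to 6 per library, and the gene was not tested where a mean of 5 CPM was required.

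HSFA7A, a heat-inducible factor whose promoter is printed above, was already well expressed in the dark and rose less. It measured 97.1, 116 and 111 CPM in mutant red light libraries, against 67.5, 64.0 and 67.5 CPM in mutant dark libraries. Wild type levels were 112, 106 and 96.9 CPM in red light, against 74.9, 57.9 and 67.6 CPM in the dark. All red light libraries lay above all dark libraries, with a rise of 1.63-fold in the mutant (log2 0.70 ± 0.10 SE, edgeR adjusted p = 9.83e-06) and 1.56-fold in the wild type (0.64 ± 0.10, edgeR adjusted p = 3.32e-05). Its relative HSFA7B had log2 changes of −0.31 ± 0.46 in the mutant and −0.23 ± 0.49 in the wild type at 1.23 to 5.73 CPM, and did not pass.

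HSFA5, a factor that can bind class A4 factors and inhibit them, was the only tested member called lower in red light. It measured 11.9, 9.69 and 12.5 CPM in mutant red light libraries, against 19.7, 14.4 and 16.8 CPM in mutant dark libraries. Col-0 libraries held 12.5, 11.4 and 12.8 CPM in red light, against 21.0, 18.5 and 15.97 CPM in the dark. The groups did not overlap. HSFA5 fell by 0.55 ± 0.17 on the log2 scale in the mutant (edgeR adjusted p = 0.0305) and by 0.61 ± 0.17 in the wild type (edgeR adjusted p = 0.0137), calls that were lost with DESeq2 (adjusted p = 0.0933 in the mutant and 0.0572 in the wild type) and without both dark libraries that stand apart (edgeR adjusted p = 0.0596 in the mutant and 0.0971 in the wild type). Its partners HSFA4A, at 3.13 to 6.49 CPM, and HSFA4C, at 10.98 to 17.3 CPM, did not pass in either genotype.

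The other class A factors showed no call. HSFA3, which acts downstream of DREB2A, had log2 changes of −0.30 ± 0.26 in the mutant and −0.03 ± 0.25 in the wild type. HSFA9, a factor of seed maturation, had log2 changes of 0.38 ± 0.35 in the mutant and 0.32 ± 0.35 in the wild type and ranged from 5.13 to 16.9 CPM over the libraries, and 28.6% of the 50-base words in its last 500 bases also lie in other genes. Seed stage markers (5 genes) summed to 4.12 to 6.74 CPM in mutant red, 2.37 to 34.3 CPM in mutant dark, 4.90 to 12.2 CPM in wild type red and 7.17 to 26.4 CPM in wild type dark libraries, and their part in any result was not tested. HSFA6A had at most 4 counts and HSFA8 at most 11 counts in a library, so neither was tested.

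Class B factors lack the activation domain of class A, and HSFB1, HSFB2A and HSFB2B repress heat shock genes in Arabidopsis. All of these repressors rose in both genotypes. HSFB1 stood at 72.8, 78.1 and 88.6 CPM in mutant red light libraries, against 42.0, 41.8 and 42.4 CPM in mutant dark libraries. Wild type levels were 72.3, 76.4 and 76.9 CPM in red light, against 45.3, 34.7 and 45.1 CPM in the dark. Its rise, without overlap, was 1.89-fold in the mutant (log2 0.92 ± 0.11 SE, edgeR adjusted p = 4.54e-07) and 1.80-fold in the wild type (0.85 ± 0.11, edgeR adjusted p = 1.92e-06).

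HSFB2B had 40.8, 30.7 and 38.4 CPM in mutant red light libraries, against 17.3, 16.9 and 13.8 CPM in mutant dark libraries. Wild type libraries had 36.7, 40.9 and 38.7 CPM in red light, against 15.6, 18.5 and 18.5 CPM in the dark. The rise was 2.33-fold in the mutant (log2 1.22 ± 0.14 SE, edgeR adjusted p = 4.52e-07) and 2.23-fold in the wild type (1.16 ± 0.14, edgeR adjusted p = 7.63e-07), with no overlap. A gene on the opposite strand, AT4G11670, overlaps HSFB2B and also rose (log2 0.85 ± 0.14 in the mutant and 1.22 ± 0.14 in the wild type). The sources used here do not give the strand setting of the counts, so reads of the overlapping part cannot be told apart.

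HSFB2A had 27.2, 23.5 and 24.2 CPM in mutant red light libraries, against 9.49, 11.5 and 16.8 CPM in mutant dark libraries. In the wild type it had 21.6, 25.2 and 27.4 CPM in red light, against 13.5, 9.10 and 13.2 CPM in the dark. The groups did not overlap, and the rise was 1.93-fold in the mutant (log2 0.95 ± 0.18 SE, edgeR adjusted p = 0.00044) and 2.06-fold in the wild type (1.04 ± 0.18, edgeR adjusted p = 0.0002). HSFB4, known for asymmetric divisions of root stem cells, had 8.47, 5.82 and 4.74 CPM in mutant red light libraries, against 4.41, 1.80 and 4.34 CPM in mutant dark libraries. Wild type libraries had 5.39, 5.15 and 6.07 CPM in red light, against 3.08, 3.31 and 2.82 CPM in the dark. Although its libraries did not overlap, HSFB4 did not pass in the mutant (log2 0.88 ± 0.32, edgeR adjusted p = 0.0646) or the wild type (0.85 ± 0.33, edgeR adjusted p = 0.098). Markers of the endodermis (3 genes) summed to 221 to 237 CPM in mutant red, 188 to 220.0 CPM in mutant dark, 214 to 239.6 CPM in wild type red and 204 to 223 CPM in wild type dark libraries. Root hair markers (3 genes) summed to 15.3 to 18.6 CPM in mutant red, 13.03 to 18.95 CPM in mutant dark, 13.3 to 14.7 CPM in wild type red and 11.03 to 20.4 CPM in wild type dark libraries, and the part of either in the HSFB4 values was not tested. HSFB3 had at most 2 counts in a library.

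HSFC1, the class C factor, had 21.8, 23.3 and 18.7 CPM in mutant red light libraries, against 14.6, 12.4 and 15.2 CPM in mutant dark libraries. Its wild type levels were 24.0, 20.3 and 20.2 CPM in red light, against 17.3, 12.4 and 13.2 CPM in the dark. The libraries did not overlap, and the rise was 1.51-fold in the mutant (log2 0.59 ± 0.16 SE, edgeR adjusted p = 0.0112) and 1.48-fold in the wild type (0.56 ± 0.16, edgeR adjusted p = 0.017). The wild type call was lost with DESeq2 (adjusted p = 0.0559), and leaving out 1 library at a time lost it in 3 cases in the wild type and 2 in the mutant, listed among the processing alternatives. A non-coding gene on the opposite strand, AT3G24518, shares 99.8% of the 50-base words in the last 500 bases of HSFC1 and rose as well (log2 0.81 ± 0.15 in each genotype), so the value of HSFC1 is uncertain.

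**Figure D2:**
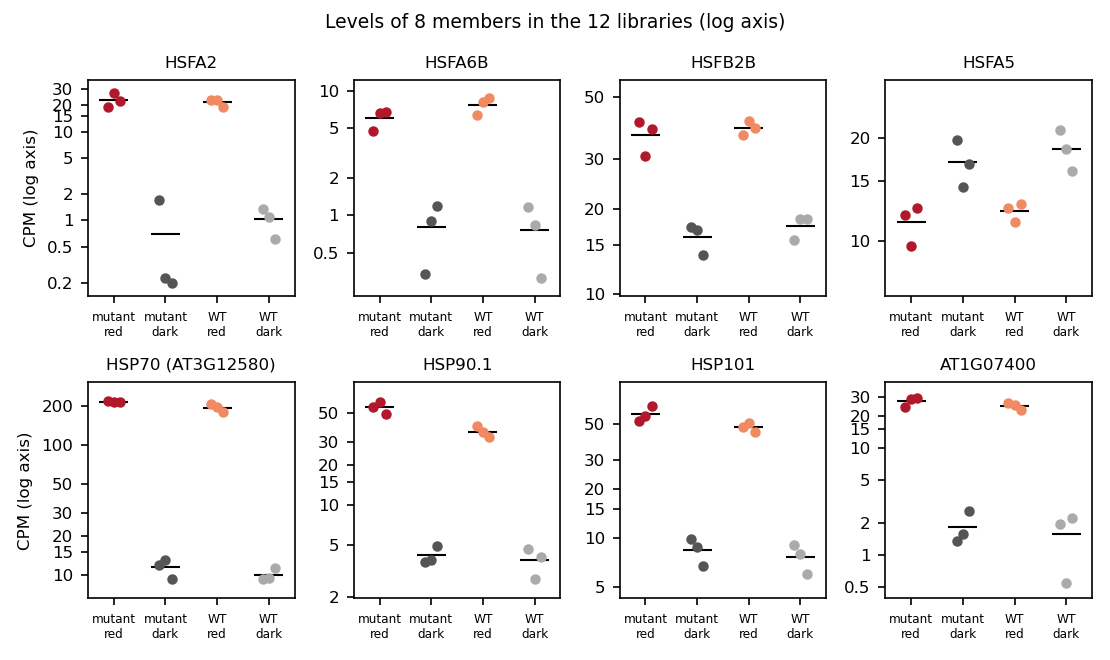
CPM on log axes in the 12 libraries for 8 members, with 1 panel per member. In each panel the groups run, from left, mutant red, mutant dark, wild type (WT) red and wild type dark, dots are libraries and black lines are means of 3. HSFA5 is the panel with red light libraries below dark libraries, and in the other 7 panels every red light library lies above every dark library of its genotype.

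Among the HSP70 genes, 4 of 5 rose in each genotype, and the rises ranged widely. HSP70 (AT3G12580; chromosome 3, 3991117 to 3993886), a heat-inducible cytosolic form, stood at 216, 212 and 214 CPM in mutant red light libraries, against 11.9, 13.0 and 9.28 CPM in mutant dark libraries. Col-0 libraries held 208, 194 and 177 CPM in red light, against 9.24, 9.38 and 11.3 CPM in the dark. The rise was 18.96-fold in the mutant (log2 4.25 ± 0.11 SE, edgeR adjusted p = 1.55e-17) and 19.5-fold in the wild type (4.29 ± 0.12, edgeR adjusted p = 2.47e-17), the smallest adjusted p of any member in each genotype.

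AT3G09440, an HSP70 gene without a symbol in the annotation, had 403, 428 and 429.9 CPM in mutant red light libraries, against 109, 116 and 113 CPM in mutant dark libraries. Wild type levels were 387, 419 and 367 CPM in red light, against 113, 113 and 117 CPM in the dark. The rise was 3.73-fold in the mutant (log2 1.90 ± 0.07 SE, edgeR adjusted p = 5.46e-15) and 3.42-fold in the wild type (1.78 ± 0.07, edgeR adjusted p = 1.86e-14). Of the 50-base words in its last 500 bases, 60.8% also lie in AT3G09430 on the opposite strand, which had 0.678 to 2.25 CPM and was not tested. AT3G02205 overlaps AT3G09440 on the same strand but is not among the genes that share these words. No value is given here for AT3G02205.

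HSC70-1, the constitutive cytosolic form that helps to hold HSFA1 factors inactive, measured 1701, 1752 and 1873 CPM in mutant red light libraries, against 1112, 1137 and 1127 CPM in mutant dark libraries. Its wild type levels were 1716, 1799 and 1601 CPM in red light, against 1185, 1137 and 1109.9 CPM in the dark. All red light libraries were higher, by 1.58-fold in the mutant (log2 0.66 ± 0.06 SE, edgeR adjusted p = 9.57e-09) and by 1.49-fold in the wild type (0.58 ± 0.06, edgeR adjusted p = 8.71e-08). Its neighbour on chromosome 5, Hsp70-2, had 19.2, 15.8 and 19.5 CPM in mutant red light libraries, against 7.12, 6.29 and 9.28 CPM in mutant dark libraries. Its levels in Col-0 were 17.64, 19.5 and 13.5 CPM in red light, against 6.36, 8.27 and 11.3 CPM in the dark. Hsp70-2 rose 2.37-fold in the mutant (log2 1.25 ± 0.21 SE, edgeR adjusted p = 0.000129) and 2.004-fold in the wild type (1.00 ± 0.21, edgeR adjusted p = 0.00156), and neither gene's last 500 bases share a 50-base word with another gene. Hsp70b, a heat-inducible form, ranged from 0.916 to 4.65 CPM over the libraries and did not pass in the mutant (log2 −0.33 ± 0.48) or the wild type (0.24 ± 0.45).

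The summed CPM of the 5 HSP70 genes, without correction for length, was 2429.9 ± 102 in mutant red and 1259 ± 16.9 in mutant dark libraries, and 2309 ± 137 in wild type red and 1279 ± 32.9 in wild type dark libraries (SD, n = 3 each). Without HSC70-1 the sum was 654 ± 14.3 CPM in mutant red and 134 ± 4.12 CPM in mutant dark libraries, and 604 ± 38.0 CPM in wild type red and 135 ± 5.59 CPM in wild type dark libraries. For all 5 genes red light stood at 1.93 times dark in the mutant and at 1.81 times dark in the wild type. Without HSC70-1 it stood at 4.89 times dark in the mutant and at 4.46 times dark in the wild type.

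Of the 4 HSP90 genes, 3 rose in both genotypes. HSP90.1 (chromosome 5, 21352557 to 21355147), the heat-inducible cytosolic form, had 55.9, 60.9 and 48.7 CPM in mutant red light libraries, against 3.73, 3.82 and 4.94 CPM in mutant dark libraries. In the wild type it had 39.4, 35.8 and 32.6 CPM in red light, against 4.62, 2.76 and 4.07 CPM in the dark. The red light libraries of both genotypes lay far above all dark libraries. Its rise was 12.9-fold in the mutant (log2 3.69 ± 0.17 SE, edgeR adjusted p = 1.1e-13) and 9.14-fold in the wild type (3.19 ± 0.18, edgeR adjusted p = 5.11e-12).

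HSP90.2, HSP90.3 and HSP90.4 are cytosolic forms that lie next to each other on chromosome 5, between 22677338 and 22689671. HSP90.2 had 581.6, 572 and 566 CPM in mutant red light libraries, against 178, 187 and 188 CPM in mutant dark libraries. Wild type libraries had 536, 505 and 524 CPM in red light, against 181, 204 and 198 CPM in the dark. That was a rise of 3.11-fold in the mutant (log2 1.64 ± 0.07 SE, edgeR adjusted p = 2e-14) and 2.69-fold in the wild type (1.43 ± 0.07, edgeR adjusted p = 2.05e-13), with no overlap.

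HSP90.3 had 351, 363 and 359 CPM in mutant red light libraries, against 121, 135 and 126 CPM in mutant dark libraries. Wild type libraries had 332, 348 and 328 CPM in red light, against 109, 131 and 140.3 CPM in the dark. It rose 2.80-fold in the mutant (log2 1.49 ± 0.08 SE, edgeR adjusted p = 2.45e-12) and 2.66-fold in the wild type (1.41 ± 0.08, edgeR adjusted p = 7.26e-12). The other gene of the cluster, HSP90.4, averaged 24.1 ± 3.904 CPM in mutant red and 18.4 ± 0.686 CPM in mutant dark libraries, and 25.3 ± 4.94 CPM in wild type red and 20.3 ± 3.39 CPM in wild type dark libraries (SD, n = 3 each), and did not pass in the mutant (log2 0.38 ± 0.16, edgeR adjusted p = 0.136) or the wild type (0.32 ± 0.16, edgeR adjusted p = 0.208). No 50-base word in the last 500 bases of these genes occurs in another gene. Summed over the 4 HSP90 genes, the level was 1010.3 ± 9.44 CPM in mutant red and 334 ± 12.8 CPM in mutant dark libraries, and 919 ± 10.8 CPM in wild type red and 345 ± 27.5 CPM in wild type dark libraries (SD, n = 3 each).

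HSP101 (chromosome 1, 27936508 to 27940369), the disaggregase needed for acquired heat tolerance, had 52.0, 55.4 and 64.2 CPM in mutant red light libraries, against 9.83, 8.76 and 6.71 CPM in mutant dark libraries. Its wild type levels were 48.0, 50.4 and 44.7 CPM in red light, against 9.05, 8.00 and 5.95 CPM in the dark. The groups were far apart, with a rise of 6.92-fold in the mutant (log2 2.79 ± 0.15 SE, edgeR adjusted p = 1.69e-12) and 6.04-fold in the wild type (2.59 ± 0.16, edgeR adjusted p = 1.14e-11). AT1G74300, which overlaps its end on the opposite strand and shares 11.5% of the 50-base words of its last 500 bases, averaged 11.7 ± 0.736 CPM in mutant red and 2.49 ± 1.01 CPM in mutant dark libraries, and 10.2 ± 1.38 CPM in wild type red and 2.36 ± 0.711 CPM in wild type dark libraries.

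The small heat shock proteins, a strongly heat-inducible class, were mostly near or below detection. Only 3 of the 9 were tested. AT1G07400, which has no symbol in the annotation, had 23.8, 28.8 and 29.2 CPM in mutant red light libraries, against 1.36, 1.57 and 2.57 CPM in mutant dark libraries. Col-0 libraries held 26.0, 25.2 and 22.7 CPM in red light, against 1.93, 0.552 and 2.19 CPM in the dark. The rise was 14.0-fold in the mutant (log2 3.80 ± 0.25 SE, edgeR adjusted p = 3.35e-11) and 15.3-fold in the wild type (3.93 ± 0.26, edgeR adjusted p = 5.9e-11). The dark levels rest on 4, 7 and 13 counts in the mutant and 10, 2 and 7 counts in the wild type.

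AT5G37670 had 8.47, 13.8 and 8.99 CPM in mutant red light libraries, against 5.43, 7.42 and 5.73 CPM in mutant dark libraries. Wild type levels were 8.08, 9.75 and 7.42 CPM in red light, against 5.78, 6.34 and 5.32 CPM in the dark. It passed in the mutant (log2 0.72 ± 0.23 SE, edgeR adjusted p = 0.0365), and did not pass in the wild type (0.52 ± 0.25, edgeR adjusted p = 0.183). The call in the mutant was lost with DESeq2 (adjusted p = 0.118) and with only the 2 groups compared (edgeR adjusted p = 0.0557). It was also lost without mutant red light replicate 2 (log2 0.48, edgeR adjusted p = 0.253), without mutant dark replicate 1 (0.66, 0.0976) or 3 (0.66, 0.125), and without both dark libraries that stand apart (0.65, 0.11). The difference between the genotypes' responses was 0.20 ± 0.34 (edgeR adjusted p = 1).

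HSP17.4, a cytosolic small heat shock protein whose promoter above holds 2 heat shock elements, had 5.95, 5.26 and 4.99 CPM in mutant red light libraries, against 2.71, 4.27 and 1.38 CPM in mutant dark libraries. In the wild type it had 6.86, 5.69 and 4.27 CPM in red light, against 1.73, 4.96 and 1.57 CPM in the dark. It did not pass in the mutant (log2 0.97 ± 0.40, edgeR adjusted p = 0.112) or the wild type (1.04 ± 0.40, edgeR adjusted p = 0.089). Replicate 2 was the highest dark library in each genotype. Without it the change passed in the mutant (log2 1.496, edgeR adjusted p = 0.0359) and, without the wild type's replicate 2, in the wild type (log2 1.74, edgeR adjusted p = 0.00745). Leaving out the highest dark library enlarges a rise in any case, so these passes are no support for one. Of the 50-base words in the last 500 bases of HSP17.4, 54.3% also lie in AT3G07365 or AT3G46220, which overlap it on the opposite strand. AT3G46220 did not pass in either genotype, and no value is given here for AT3G07365.

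Of the 6 untested small heat shock proteins, HSP17.6II had 3, 4 and 4 counts in mutant red light libraries, against 0 in each mutant dark library. Wild type libraries had 5, 3 and 2 counts in red light, against 0 in each dark library. Set against the 3 counts over a group that a count of 0 allows, the observed red light level was 3.81-fold higher in the mutant and 3.28-fold higher in the wild type. These values allow for counting error in the dark only. They are not lower limits, since the few red light counts carry counting error too. It passed where no filter was applied to low counts (edgeR adjusted p = 0.0145 in the mutant and 0.0262 in the wild type). HSP21 had 1 count in all, in a mutant red light library, and 0 elsewhere, where 3 counts correspond to 0.578 to 1.02 CPM. Over the 3 libraries of a group, HSP23.6-MITO summed to 3 counts in mutant red, 0 in mutant dark, 6 in wild type red and 1 in wild type dark. AT1G53540 summed to 3 counts in mutant red, 1 in mutant dark, 10 in wild type red and 2 in wild type dark. HSP22.0 had its higher sums in the dark, with 5 counts in mutant red, 16 in mutant dark, 10 in wild type red and 21 in wild type dark. HSP18.2 summed to 17 counts in mutant red, 8 in mutant dark, 17 in wild type red and 19 in wild type dark. Tested without the filter, these 5 genes did not pass, and neither did HSFA6A, HSFA8 and HSFB3.

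The 9 genes together summed to 46.5 ± 5.06 CPM in mutant red and 12.7 ± 2.29 CPM in mutant dark libraries, and 43.0 ± 4.59 CPM in wild type red and 13.6 ± 1.34 CPM in wild type dark libraries (SD, n = 3 each). Without AT1G07400 they summed to 19.2 ± 2.63 CPM in mutant red and 10.9 ± 2.44 CPM in mutant dark libraries, and 18.4 ± 2.90 CPM in wild type red and 12.04 ± 2.18 CPM in wild type dark libraries.

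**Figure D3:**
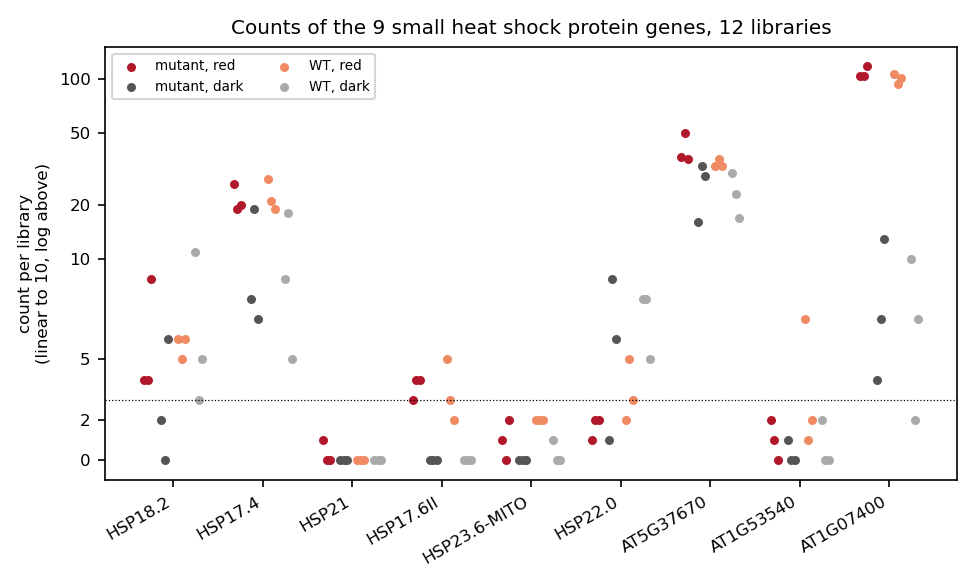
Counts per library (y axis, linear to 10 and logarithmic above) of the 9 small heat shock protein genes. Dots are libraries, from left in each gene mutant red, mutant dark, wild type (WT) red and wild type dark, and the dotted line marks 3 counts. AT1G07400 is the gene with about 100 counts in each red light library, and HSP21 has 1 count in all.

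Co-chaperones, which load clients onto HSP70 and HSP90, and related heat genes were followed through 3 further lists. The lists were chosen with earlier results of these data known, so their counts are a description and no independent support. Of 19 co-chaperones and HSF modulators, all tested, 10 rose in the mutant and 9 in the wild type, and none fell. Over all tested genes, 10.7% were higher and 5.27% lower in the mutant, and 10.6% were higher and 4.68% lower in the wild type. J3, an HSP40 protein that hands clients to HSP70, averaged 296 ± 13.3 CPM in mutant red and 153 ± 5.36 CPM in mutant dark libraries, and 312 ± 6.49 CPM in wild type red and 148 ± 11.5 CPM in wild type dark libraries. J3 rose by 0.96 ± 0.07 on the log2 scale in the mutant (edgeR adjusted p = 7.27e-10) and by 1.07 ± 0.07 in the wild type (edgeR adjusted p = 1.16e-10). J2, another HSP40 protein, rose by 1.24 ± 0.09 in the mutant (edgeR adjusted p = 1.45e-10) and by 1.09 ± 0.09 in the wild type (edgeR adjusted p = 1.45e-09). AT5G48570, listed in RefSeq with the synonym ROF2, rose by 2.92 ± 0.18 in the mutant (edgeR adjusted p = 1.3e-11) and by 2.38 ± 0.18 in the wild type (edgeR adjusted p = 3.28e-10). HSBP, a negative regulator of HSFs, had log2 changes of −0.09 ± 0.10 in the mutant and −0.04 ± 0.10 in the wild type and did not pass.

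Of 8 organelle relatives of the chaperones, 6 rose in the mutant and 4 in the wild type, and none fell. The shares of all tested genes that rose were 10.7% in the mutant and 10.6% in the wild type. The mitochondrial disaggregase gene CLPB4 averaged 23.4 ± 1.82 CPM in mutant red against 7.52 ± 1.48 CPM in mutant dark libraries, and 21.4 ± 1.64 CPM in wild type red against 8.85 ± 1.62 CPM in wild type dark libraries. CLPB4 rose by 1.62 ± 0.18 on the log2 scale in the mutant (edgeR adjusted p = 2.16e-07) and by 1.30 ± 0.18 in the wild type (edgeR adjusted p = 5.3e-06). MTHSC70-2, a mitochondrial HSP70, rose by 1.16 ± 0.18 in the mutant (edgeR adjusted p = 2.92e-05) and by 1.42 ± 0.19 in the wild type (edgeR adjusted p = 4.88e-06). The chloroplast HSP70 gene cpHsc70-2 rose by 0.73 ± 0.09 in the mutant (edgeR adjusted p = 8.25e-07) and by 0.71 ± 0.09 in the wild type (edgeR adjusted p = 1.5e-06).

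Among 13 other heat-inducible genes, 10 were tested, of which 8 rose in the mutant and 7 in the wild type, and none fell. AT2G20560, AT1G59860, AT5G51440 and ATERDJ3A passed the filter on low counts only through their red light libraries. They could enter the test only by being high there, and they are counted among the genes that rose in each genotype. For comparison, 10.7% of all tested genes rose in the mutant and 10.6% in the wild type. MBF1C, a transcriptional coactivator needed for heat tolerance, averaged 248 ± 18.4 CPM in mutant red against 37.8 ± 8.78 CPM in mutant dark libraries, and 236 ± 13.2 CPM in wild type red against 33.8 ± 8.76 CPM in wild type dark libraries. MBF1C rose by 2.74 ± 0.14 on the log2 scale in the mutant (edgeR adjusted p = 9.04e-13) and by 2.84 ± 0.15 in the wild type (edgeR adjusted p = 6.51e-13). DREB2A, the drought and heat factor that activates HSFA3, rose by 2.34 ± 0.14 in the mutant (edgeR adjusted p = 9.79e-12) and by 2.33 ± 0.14 in the wild type (edgeR adjusted p = 1.35e-11). AT2G20560 rose by 3.25 ± 0.23 in the mutant (edgeR adjusted p = 1.07e-10) and by 3.02 ± 0.23 in the wild type (edgeR adjusted p = 5.32e-10). Its dark levels rest on 5, 14 and 11 counts in the mutant and 11, 8 and 11 counts in the wild type.

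The mutant and the wild type were then compared directly. In the dark no member passed in either direction with edgeR, and none had an unadjusted p under 0.05, while 0.027% of all tested genes were higher and 0.027% lower. DESeq2 and limma-voom also called 0 members. In red light 1 member, HSP90.1, was higher in the mutant and none lower, where 0.0541% of all tested genes were higher and 0.027% lower, and 3 members had an unadjusted p under 0.05. HSP90.1 was also called with limma-voom, and DESeq2 called 0 members.

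HSP90.1 averaged 55.2 ± 6.16 CPM in mutant red light libraries and 35.9 ± 3.43 CPM in wild type red light libraries (SD, n = 3 each), a 1.53-fold difference that was higher in 3 of 3 mutant libraries (log2 0.62 ± 0.12 SE, edgeR adjusted p = 0.0494). The call was lost with DESeq2 (adjusted p = 0.191) and in 9 of the 12 fits that left out a library (edgeR adjusted p = 0.0586 to 0.625). In the dark HSP90.1 averaged 4.16 ± 0.671 CPM in the mutant and 3.82 ± 0.958 CPM in the wild type. Its larger red light response in the mutant, by 0.50 ± 0.30 on the log2 scale, did not pass (edgeR adjusted p = 1).

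In red light the libraries of the genotypes did not overlap for 5 members, HSP70 (AT3G12580), HSP90.1, HSP90.2, HSP90.3 and HSP101, with the mutant higher in each, an order shown by 5.69% of all tested genes. None had all mutant libraries below all wild type libraries, as 5.42% of all tested genes had. HSP90.2 averaged 573 ± 8.00 CPM in mutant red and 522 ± 15.4 CPM in wild type red libraries (log2 0.14 ± 0.07, edgeR adjusted p = 0.999). HSP101 averaged 57.2 ± 6.28 CPM in mutant red and 47.7 ± 2.84 CPM in wild type red libraries (0.26 ± 0.12, edgeR adjusted p = 0.999). In the dark, HSFA1D was the only tested member without overlap, lower in the mutant, an order shown by 4.51% of all tested genes.

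**Figure D4:**
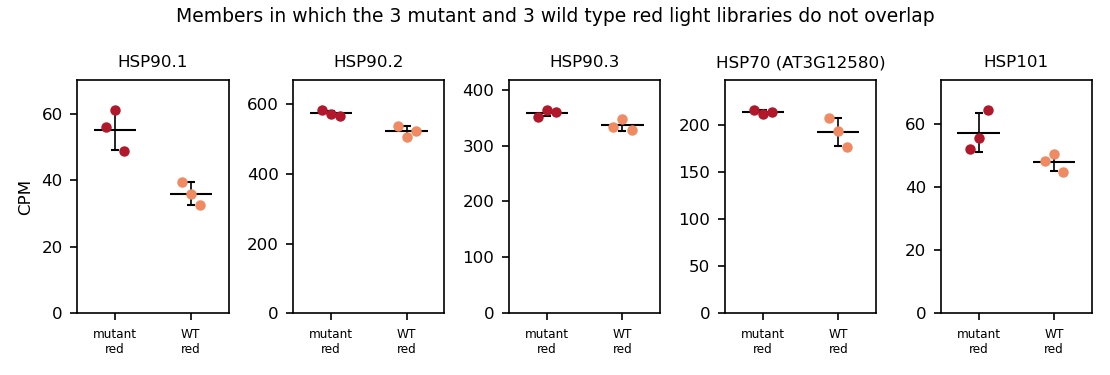
CPM from 0 (y axis) in the 3 mutant and the 3 wild type (WT) red light libraries for the 5 members whose libraries do not overlap. Dots are libraries, horizontal lines means and bars SD of 3. HSP90.1 shows the widest gap relative to its level, with 48.7 CPM in the lowest mutant library and 39.4 CPM in the highest wild type library.

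The difference between the red light responses was tested by interaction, and no member passed with edgeR, DESeq2 or limma-voom, as no gene of all tested passed with edgeR. With edgeR 1 member, HSP90.2, had an unadjusted p under 0.05 (0.0408), with a response larger in the mutant by 0.21 ± 0.09 on the log2 scale. The response was larger in the mutant for 20 of the 31 tested members, while 51% of all tested genes had a larger value in the mutant. As a description across these 31 genes, which are not independent replicates and share the fit, the responses of the 2 genotypes had a Pearson correlation of 0.984 and a Spearman correlation of 0.973.

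The printed promoters can be set beside these values. A heat shock element of 3 repeats, searched on both strands, lay in the 250 bases before the start of 5 of the 40 members (12.5%) and of 106 of 27443 protein-coding genes (0.386%). HSFA2 holds it at bases 88 to 76 before the start and HSFA7A at bases 192 to 180 and 142 to 130. Both are among the 16 members that rose in both genotypes, of which these 2 hold an element. HSFA7B and HSP17.4, 2 of the 14 tested members higher in neither genotype, also hold it, as does AT1G53540 among the 9 untested members. HSP70 (AT3G12580), HSP101 and AT1G07400 rose without a match in this window. The gene model of HSP90.1 starts at its first coding base, with no leader before it, so its window need not lie upstream of transcription and is not comparable with theirs. Such models make up 1 of the 40 members (2.5%) and 3942 of the 27443 protein-coding genes (14.4%), which also touches the shares given for all genes. A match is a run of letters, and its absence says only that these letters do not lie in these 250 bases.

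Shorter pairs of the repeat were more common. GAANNTTC lay in 7 members (17.5%) and 9.55% of all promoters, and TTCNNGAA in 7 members (17.5%) and 7.68% of all promoters, where each full element contains a copy of both. The G-box CACGTG, a motif bound by light-signalling factors such as HY5 and the PIFs, lay in HSFA1E, HSFA2, HSC70-1 and HSP17.4, which is 10% of the members, against 6.49% of all promoters. In HSFA2 the G-box lies at bases 56 to 51, between the heat shock element and the start.

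**Figure D5:**
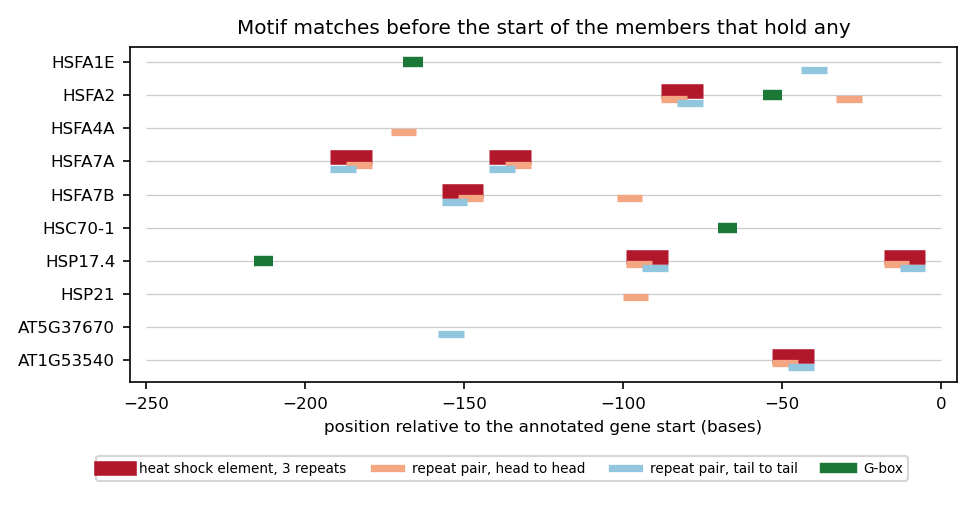
Positions of motif matches (x axis, bases before the annotated start at 0) in the 10 members with at least 1 match (rows). Thick bars are heat shock elements of 3 repeats, thin bars the repeat pairs (head to head GAANNTTC, tail to tail TTCNNGAA), which overlap the elements, and dark bars the G-box. HSFA7A and HSP17.4 show 2 elements each, and HSFA2 has an element and a G-box.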

How the data were processed

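The authors deposited whole-number counts per gene and library from 3′ tag libraries of total RNA. Tools named without versions in the submitters' processing notes are HISAT2, HTSeq, FastQC and edgeR, and the build is TAIR10. The sources used here do not state the strand setting or how reads matching several genes were treated. The 5 HTSeq summary lines were left out (ambiguous reads came to 0.943 to 1.28% of the gene counts). Members and gene lists were chosen with earlier results of these data known.

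Tests used edgeR 4.0.16 (R 4.3.3) with TMM factors. FilterByExpr (minimum count 10) left 18487 genes, fitted once by quasi-likelihood over the 12 libraries with the 4 groups as terms, and p was adjusted over all genes by Benjamini-Hochberg (threshold 0.05). SE is the log2 change divided by the square root of F. CPM uses TMM-scaled sizes, given as mean ± SD of 3. All replicate pairs differed beyond counting noise (chi-square at least 1.54 per degree of freedom). The fit was tested on simulated data. All members are named, with library values for those called in any comparison, and from each list up to 3 called genes with the smallest wild type p. HSFB4, HSP17.4, HSP17.6II and HSBP were given values beyond that rule after they were seen. Alternatives were DESeq2 1.42.0, limma-voom 3.58.1, RLE factors, other filters, a replicate block, only the 2 groups compared, and left-out libraries. Promoters were read from RefSeq TAIR10.1, matched by locus for all 40 members. Figures used matplotlib 3.10.9.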

Additional observations from a re-analysis of the deposited data

How the results depend on the processing

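No member's change that was called in the main fit reversed under any alternative run. Changes without a call there were not checked for reversal. Over the 36 called member results and their 718 alternative values, 683 kept direction and call and 35 kept direction but lost the call. The number of members higher in red light was 16 to 20 in the mutant and 15 to 18 in the wild type under the other tests, scalings, filters and fits, and when 1 library was left out it was 15 to 18 in the mutant and 15 to 16 in the wild type. The number lower (HSFA5, 1 in each genotype) was 0 with DESeq2 and without both dark libraries that stand apart, in each genotype, and 0 to 1 when 1 library was left out, being 0 without mutant dark replicate 1 or 3, mutant red replicate 1 or 2, wild type dark replicate 1 or wild type red replicate 2. The number higher in the mutant in red light (HSP90.1, 1) was 0 with DESeq2, RLE factors (adjusted p = 0.0531), a mean of at least 5 CPM (0.0548) and the replicate block (0.108), and 0 to 1 when 1 library was left out. The HSFC1 call was lost without mutant dark or red replicate 2 (edgeR adjusted p = 0.0689 and 0.0617), and in the wild type without dark replicate 2 or 3 or red replicate 1 (0.0754, 0.0605 and 0.0953). In the mutant HSFB4 passed without filter (0.0464), without mutant dark replicate 3 (0.046) or red replicate 3 (0.0419) and without both dark libraries that stand apart (0.0329). For HSFB4, mutant dark replicate 3 (4.34 CPM) lay above its group mean (3.52 CPM), and mutant red replicate 3 (4.74 CPM) was the lowest of its group. Leaving out either enlarges a rise in any case, so the passes without them are no support for one. HSP17.4 passed without filter (0.0428 in the mutant and 0.0255 in the wild type). The cause of these changes was not tested. The labels do not pair replicate numbers, and same-numbered libraries correlated at −0.17 to 0.15 in their deviations, so the block was kept as an alternative. It changed no other member's call. Fitting only the groups compared could not be run for the difference between responses, which uses all 4. Depth limits the 9 untested members, where 3 counts are 0.578 to 1.02 CPM.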
